A study of Saccharomyces cerevisiae and Kluyveromyces marxianus with 18 samples.

Results

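The genes described here are the 6 that S. cerevisiae uses to take up sterol from outside the cell and to tune that uptake to its sterol supply. They are the ABC transporter genes AUS1 (YOR011W) and PDR11 (YIL013C), the sterol-sensing regulator genes UPC2 (YDR213W) and ECM22 (YLR228C), and the regulator genes SUT1 (YGL162W) and SUT2 (YPR009W). A row of a count table belonged to the set when the S. cerevisiae S288C entry given for it in the deposited tables was one of these loci. Of the 11501 genes counted in both species, 7 met this rule, 6 of 6171 in Saccharomyces cerevisiae and 1 of 5330 in Kluyveromyces marxianus. The K. marxianus row was the one assigned to UPC2, and no K. marxianus row carried the entry of AUS1, PDR11, ECM22, SUT1 or SUT2. Any S288C entry was given for 3979 of the 5330 K. marxianus genes and 5422 of the 6171 S. cerevisiae genes. A locus said below to have no row is one whose entry no row carried, which does not show that the gene is absent.

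Ergosterol, the main sterol of yeast membranes, is made from squalene in steps that consume molecular oxygen, so a cell without oxygen has to take sterol from the medium. In S. cerevisiae the plasma membrane transporters Aus1 and Pdr11, of the PDR subfamily of ABC proteins, carry out that import, which is known to be shut off in aerobic cells. Upc2 and Ecm22 are paired zinc-cluster transcription factors that bind the sterol response elements of ergosterol synthesis and uptake genes. Upc2 binds ergosterol itself and moves to the nucleus when sterol runs low. Sut1 and Sut2 are another pair of zinc-cluster proteins, and Sut1 is known to allow sterol uptake in aerobic cells when overproduced. These roles were established in S. cerevisiae.

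Polyadenylated RNA was sequenced from steady-state chemostats of the wild-type strains K. marxianus CBS6556 and S. cerevisiae CEN.PK113-7D, a laboratory reference strain, with 2 biological replicate libraries in each group. All cultures grew at a dilution rate of 0.1 per hour and pH 6 on a synthetic urea medium with an antifoam. Aerobic cultures received 7.5 g/L of glucose and 10 mg/L of ergosterol, without Tween 80, a detergent used as a source of unsaturated fatty acids. All other cultures received 20 g/L of glucose. The oxygen-limited group and the anaerobic group TE both received 420 mg/L of Tween 80 together with ergosterol at 10 mg/L. Anaerobic group T received the same Tween 80 with no ergosterol, and the anaerobic unsupplemented group, grown for S. cerevisiae, received neither. Aerobic cultures therefore differed from the oxygen-limited and TE cultures in glucose and Tween 80 as well as oxygen, and these factors cannot be told apart. The run code in the sample titles also changed with the group, other than for T and TE of K. marxianus and for the unsupplemented and TE groups of S. cerevisiae, which share codes.

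Library totals were between 6510449 and 10660870 counts in K. marxianus and between 2849618 and 13112466 in S. cerevisiae. Unsupplemented replicate 2 had the lowest total, and its TMM scaling factor of 0.371 also stood apart from the 0.972 to 1.21 of the other S. cerevisiae libraries. All groups of a species shared 1 estimate of the spread, and the common biological coefficient of variation was 32.1% in S. cerevisiae against 15.5% in K. marxianus. As a check of the oxygen supply, the 4 genes known to be higher without oxygen in S. cerevisiae (ANB1, AAC3, COX5B and HEM13) were all higher in TE than in aerobic S. cerevisiae cultures. In oxygen-limited S. cerevisiae cultures 2 of the 4, AAC3 and COX5B, were higher than in aerobic ones. HEM13 had a log2 fold change of -1.34 there (SE 0.51, adjusted p 0.126). Without the unsupplemented group 3 of the 4 were called higher and 1 lower, where 62.0% of all genes were called. CYC1 and COX5A are known to be higher with oxygen. In S. cerevisiae 0 of these 2 were called under oxygen limitation (median 0.96), and 1 was lower in TE than in aerobic cultures (median -2.45). In K. marxianus HEM13 rose and AAC3 fell in TE against aerobic cultures, and no K. marxianus row carried ANB1 or COX5B. CYC1 and COX5A of K. marxianus were both lower in TE than in aerobic cultures (median -2.24). Under oxygen limitation 1 of them was higher (median 0.23). All values are shares of the RNA of a culture, so fewer transcripts per cell and more of all other RNA cannot be told apart.

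AUS1, an importer gene, covered the widest range of the 6 genes. The S. cerevisiae gene (SCEN_O01830, chromosome 15, 349460 to 353644, plus strand, in the authors' CEN.PK113-7D annotation) had raw counts of 603 and 767 in the aerobic libraries and 253 and 302 in the oxygen-limited ones. Its counts were 8265 and 5122 in TE, 27413 and 33152 in T, and 20895 and 5347 in the unsupplemented group. Scaled by library size and gene length (RPKM), the levels were 10.5 and 12.4 in aerobic, 6.77 and 7.21 in oxygen-limited, 162.2 and 119.8 in TE, 545.7 and 527.7 in T, and 422.9 and 1208 in unsupplemented cultures. Every anaerobic library was above every library with oxygen, and the T libraries were above the TE libraries without overlap. The unsupplemented libraries lay on either side of the T libraries. Without TMM factors they were at 455.5 and 448.4 RPKM, both below T at 627.3 and 604.1. Among all genes tested, AUS1 ranked between percentiles 4.68 and 8.97 by level in cultures with oxygen and at percentile 94.9 in T.

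PDR11, the other importer gene (SCEN_I01660, chromosome 9, 322448 to 326683, minus strand), had the same order of groups up to TE over a narrower range, with T rather than the unsupplemented group highest. It had raw counts of 858 and 1041 in aerobic, 194 and 291 in oxygen-limited, 2258 and 1402 in TE, 3820 and 5130 in T, and 2253 and 467 in unsupplemented libraries. The RPKM were 14.8 and 16.7 in aerobic, 5.13 and 6.86 in oxygen-limited, 43.8 and 32.4 in TE, 75.1 and 80.7 in T, and 45.1 and 104.2 in unsupplemented cultures. The oxygen-limited libraries were the lowest, with no overlap with the aerobic ones, and the unsupplemented libraries again lay on either side of T. Without TMM factors the unsupplemented libraries were at 48.5 and 38.7 RPKM, both below T at 86.4 and 92.4. They then lay between the TE libraries at 50.2 and 34.7.

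UPC2 (SCEN_D04550, chromosome 4, 869374 to 872115, plus strand) was among the lowest genes in S. cerevisiae with oxygen and well above the middle without ergosterol. Its raw counts were 318 and 312 in aerobic, 87 and 151 in oxygen-limited, 1356 and 988 in TE, 4696 and 5868 in T, and 3173 and 300 in unsupplemented libraries. As RPKM these were 8.45 and 7.71, then 3.55 and 5.50, then 40.6 and 35.3, then 142.7 and 142.6, and last 98.0 and 103.4, in the same order of groups. No groups overlapped, and the order from low to high was oxygen-limited, aerobic, TE, unsupplemented and T. Without TMM factors the unsupplemented libraries were at 105.6 and 38.4 RPKM and overlapped with TE at 46.6 and 37.8. Its rank among all genes tested was between percentiles 1.78 and 3.71 under oxygen limitation and between 80.5 and 80.8 in T.

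ECM22, the gene paired with UPC2 (SCEN_L02900, chromosome 12, 559833 to 562277, minus strand), varied much less. Raw counts were 1146 and 1199 in aerobic, 352 and 500 in oxygen-limited, 1318 and 920 in TE, 1073 and 1331 in T, and 1965 and 239 in unsupplemented libraries. The RPKM were 34.2 and 33.2 in aerobic, 16.1 and 20.4 in oxygen-limited, 44.3 and 36.8 in TE, 36.6 and 36.3 in T, and 68.1 and 92.4 in unsupplemented cultures. Aerobic, T and TE libraries lay close together, the oxygen-limited ones below them and the unsupplemented ones above, with no overlap between neighbouring groups. Without TMM factors the unsupplemented libraries were at 73.3 and 34.3 RPKM, the second below both aerobic libraries at 40.9 and 40.3. TE, at 50.8 and 39.4, then also overlapped with T at 42.0 and 41.5.

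SUT1 (SCEN_G01140, chromosome 7, 216552 to 217451, plus strand) was the only 1 of the 6 whose lowest group was the aerobic one by a wide margin. Raw counts were 202 and 185 in aerobic, 809 and 818 in oxygen-limited, 1707 and 1170 in TE, 1097 and 1331 in T, and 723 and 48 in unsupplemented libraries. The RPKM were 16.4 and 13.9 in aerobic, 100.7 and 90.8 in oxygen-limited, 155.7 and 127.2 in TE, 101.5 and 98.5 in T, and 68.0 and 50.4 in unsupplemented cultures. The oxygen-limited and T libraries overlapped, TE lay above them and the unsupplemented libraries between them and the aerobic ones. Without TMM factors unsupplemented replicate 2 was at 18.7 RPKM, between the aerobic libraries at 19.6 and 16.9. T, at 116.7 and 112.8, then lay above the oxygen-limited libraries at 97.8 and 99.7.

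SUT2 (SCEN_P03060, chromosome 16, 584738 to 585544, plus strand) stayed within a narrow band. Raw counts were 971 and 950 in aerobic, 568 and 874 in oxygen-limited, 968 and 938 in TE, 669 and 901 in T, and 1252 and 69 in unsupplemented libraries. The RPKM were 87.7 and 79.8 in aerobic, 78.8 and 108.2 in oxygen-limited, 98.5 and 113.7 in TE, 69.1 and 74.4 in T, and 131.4 and 80.8 in unsupplemented cultures. T was the lowest group and did not overlap with the aerobic group above it, while all further neighbours in the order of groups overlapped. Without TMM factors unsupplemented replicate 2 was at 30.0 RPKM, the lowest SUT2 value of any library. The 48 to 69 raw counts of SUT1 and SUT2 in unsupplemented replicate 2 were the smallest behind any value of the 6 genes.

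**Figure D1:**
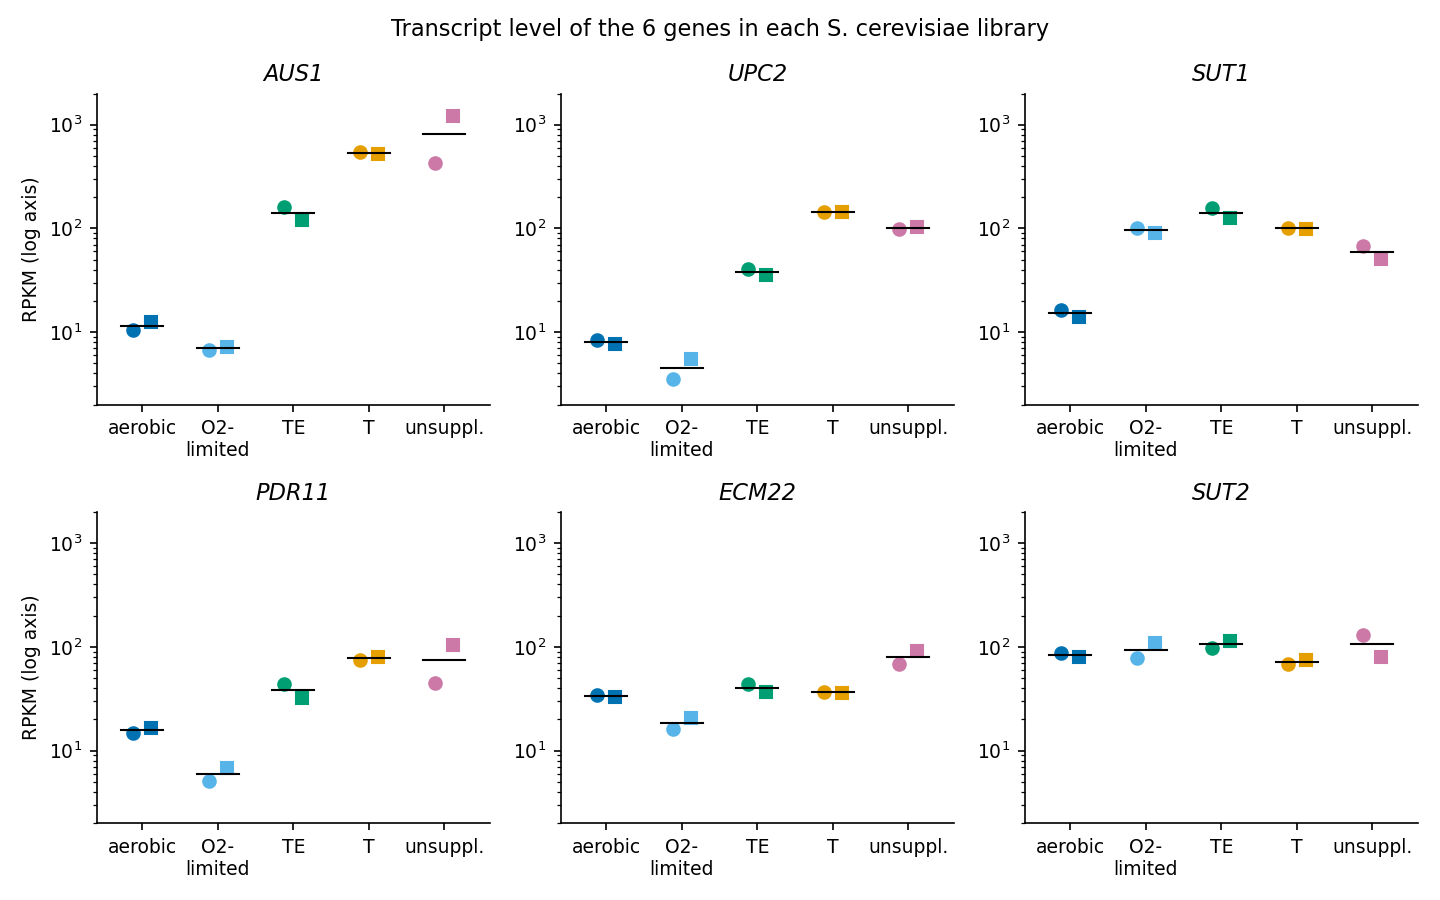
Transcript level of each of the 6 genes in every S. cerevisiae library, as RPKM on a log axis, by culture group (circle, replicate 1; square, replicate 2; line, mean of 2 libraries). AUS1, PDR11 and UPC2 step up from the cultures with oxygen to TE and again to T. With TMM factors, SUT1 is lowest in aerobic cultures, and SUT2 stays between 69.1 and 131.4 RPKM.

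The comparison of oxygen-limited with aerobic S. cerevisiae cultures asked how transcripts changed as oxygen ran short. SUT1 rose 6.32-fold, or 2.66 log2 units (SE 0.25), with an adjusted p of 0.00125 (edgeR quasi-likelihood test, Benjamini-Hochberg over all genes). It was the 1 gene of the 6 called, in a comparison that called 14.1% of all genes tested, 7.98% higher and 6.12% lower. The importers and sensors all had lower levels in both oxygen-limited libraries than in either aerobic one, but none passed the threshold. The log2 fold changes were -1.39 (SE 0.40, adjusted p 0.0591) for PDR11, -0.88 (SE 0.24, adjusted p 0.0507) for ECM22, -0.83 (SE 0.25, adjusted p 0.0687) for UPC2 and -0.71 (SE 0.48, adjusted p 0.374) for AUS1. SUT2 stood at 0.16 (SE 0.28).

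The calls in this comparison differed between fits. DESeq2 on the same libraries called 4 of the 6, SUT1 higher and PDR11 (adjusted p 0.0220), UPC2 (0.0188) and ECM22 (0.0165) lower, where it called 26.1% of all genes. Without the unsupplemented group, which takes no part in the comparison but enters the shared spread, 5 of the 6 genes were called, SUT1 higher and AUS1, PDR11, UPC2 and ECM22 lower, in a fit that called 62.0% of all genes. Leaving out either unsupplemented library alone also gave 5. The authors' deposited table for this comparison gives adjusted p-values of 0.0126 for PDR11, 0.0196 for ECM22, 0.0488 for UPC2 and 0.348 for AUS1.

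Anaerobic TE cultures were compared with aerobic ones to follow the full loss of oxygen. AUS1 rose 12.3-fold, from 47.97 ± 5.67 to 589.9 ± 125 CPM (counts scaled to library size, mean ± SD, n = 2), or 3.62 log2 units (SE 0.52, adjusted p 0.00488). SUT1 rose 9.34-fold (log2 3.22, SE 0.25, adjusted p 0.000466) and UPC2 4.69-fold (log2 2.23, SE 0.26, adjusted p 0.00198). These 3 of the 6 genes were called and were higher, where 13.1% of all genes tested were called, 6.15% higher and 6.95% lower. The log2 fold change of PDR11 was 1.28 (SE 0.40, adjusted p 0.0785), with both TE libraries above both aerobic ones. ECM22 at 0.27 (SE 0.24) and SUT2 at 0.34 (SE 0.28) had 95% intervals of -0.29 to 0.82 and -0.32 to 1.00. The call of AUS1 was lost when aerobic replicate 1 or 2 was left out, with adjusted p of 0.0710 and 0.0661. Without the unsupplemented group, 4 of the 6 were called, PDR11 being added, where 58.2% of all genes were.

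TE and oxygen-limited cultures shared glucose, Tween 80 and ergosterol, so the labelled conditions differ in oxygen supply alone. The run code in the titles also changed between these groups, so run code and oxygen cannot be told apart. Both importers and UPC2 rose here. The log2 fold change was 4.33 for AUS1 (20.2-fold, SE 0.54, adjusted p 0.0102), 2.67 for PDR11 (6.34-fold, SE 0.42, adjusted p 0.0252) and 3.06 for UPC2 (8.36-fold, SE 0.27, adjusted p 0.00581). These 3 of 6 stand beside 2.11% called among all genes tested, 0.835% higher and 1.28% lower. The values were 1.15 for ECM22 (SE 0.24, adjusted p 0.0604), 0.56 for SUT1 (SE 0.23, adjusted p 0.303) and 0.18 for SUT2 (SE 0.28). The number called fell to 0 when TE replicate 1 or TE replicate 2 was left out in fits that called 0.00% of all genes, and to 1 without either oxygen-limited library (1.86% and 0.695% of all genes), while 5 were called without the unsupplemented group, where 38.8% of all genes were. In the 2 fits without a TE library, the log2 fold changes stayed at 4.10 and 4.51 for AUS1, 2.43 and 2.84 for PDR11, and 2.96 and 3.14 for UPC2.

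Removing ergosterol from the anaerobic medium while keeping Tween 80 (T against TE) asked what sterol supply does when oxygen is absent throughout. The run code also changed between these S. cerevisiae groups, so run code and ergosterol cannot be told apart. UPC2 rose a further 3.76-fold, from 104.0 ± 10.4 to 391.1 ± 0.213 CPM (mean ± SD, n = 2), or 1.91 log2 units (SE 0.25, adjusted p 0.0114). It was the 1 of 6 called, against 5.04% of all genes, 1.72% higher and 3.32% lower. The importers had log2 fold changes of 1.93 for AUS1 (SE 0.49, adjusted p 0.0668) and 1.03 for PDR11 (SE 0.39, adjusted p 0.182), both higher in each T library than in each TE library. ECM22 stood at -0.15 (SE 0.24), SUT1 at -0.50 (SE 0.23) and SUT2 at -0.56 (SE 0.28). UPC2 was no longer called when any 1 of the T, TE or aerobic libraries was left out, with adjusted p from 0.0515 to 0.193. Its log2 fold change there was 1.89 to 2.02, and those fits called 0.0508% to 0.797% of all genes. Without the unsupplemented group 5 of the 6 were called, AUS1, PDR11 and UPC2 higher and SUT1 and SUT2 lower, where 50.2% of all genes were.

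In unsupplemented cultures, compared with TE, both Tween 80 and ergosterol were missing. AUS1 rose 5.78-fold (log2 2.53, SE 0.50, adjusted p 0.0251), UPC2 2.65-fold (log2 1.41, SE 0.25, adjusted p 0.0181) and ECM22 1.97-fold (log2 0.98, SE 0.24, adjusted p 0.0492). SUT1 fell 2.36-fold (log2 -1.24, SE 0.24, adjusted p 0.0228). Of the 6 genes 4 were thus called, beside 8.67% of all genes tested, 6.10% higher and 2.57% lower. PDR11 stood at 0.96 (SE 0.40, adjusted p 0.141) and SUT2 at 0.02 (SE 0.29) on the log2 scale. The importers rested on which unsupplemented library was kept, and the TMM factors of these libraries were 1.08 for replicate 1 and 0.371 for replicate 2. AUS1 was at 1.51 without replicate 2 and at 3.09 without replicate 1, and PDR11 at 0.17 and 1.45. None of the 6 was called when any T, TE or aerobic library was left out or in a fit of those groups alone, and 2 were called without either oxygen-limited library. Against T, the labelled medium differed in Tween 80 alone, but the run code changed too, so the 2 cannot be told apart. The median log2 fold change of all genes was itself 0.11 there. ECM22 rose there (log2 1.14, SE 0.24, adjusted p 0.0328), the 1 of 6 called beside 11.3% of all genes, 8.37% higher and 2.95% lower, and that call was lost without any 1 library outside the unsupplemented group. The other 5 were at 0.60 for AUS1, -0.07 for PDR11, -0.50 for UPC2, -0.74 for SUT1 and 0.58 for SUT2. For AUS1 this value was -0.44 without unsupplemented replicate 2 and 1.16 without replicate 1, and for PDR11 it was -0.88 and 0.41, so both signs rested on which library was kept. Without TMM factors both unsupplemented libraries lay below both T libraries for AUS1 and for PDR11. For ECM22 they then lay on either side of T and of TE.

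**Figure D2:**
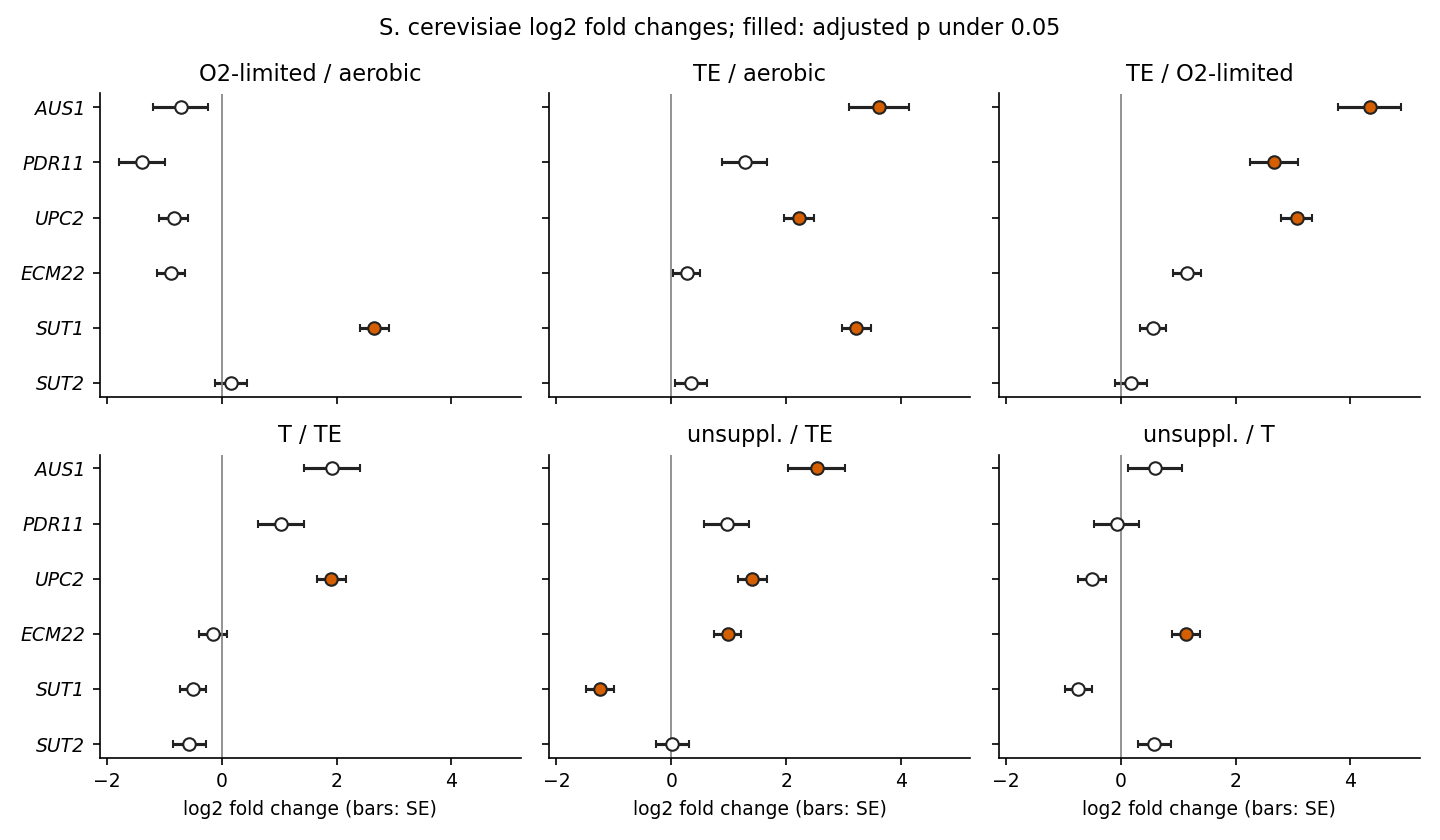
Log2 fold changes of the 6 genes in the 6 S. cerevisiae comparisons, with SE as bars (edgeR, 2 libraries in each group; filled points have an adjusted p under 0.05 over all genes). SUT1 stands alone at 2.66 in oxygen-limited against aerobic cultures, AUS1, PDR11 and UPC2 lead in TE against oxygen-limited cultures, and UPC2 is called in T against TE.

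Within each functional pair the balance of transcripts moved with the culture. AUS1 had 0.711 and 0.746 times the per-length level of PDR11 in the aerobic libraries and 1.32 and 1.05 times under oxygen limitation. The ratio was 3.70 in both TE libraries, 7.26 and 6.54 in T, and 9.39 and 11.6 in the unsupplemented group, so every anaerobic library held more AUS1 than PDR11. UPC2 was at 0.247 and 0.232 times ECM22 in aerobic and 0.220 and 0.269 times in oxygen-limited libraries, near equality in TE at 0.917 and 0.958, and at 3.90 and 3.93 in T. In unsupplemented cultures that ratio was back at 1.44 and 1.12, with ECM22 higher and UPC2 lower than in T by TMM-scaled RPKM. SUT1 had 0.187 and 0.175 times the level of SUT2 in aerobic libraries, between 0.839 and 1.58 times in the oxygen-limited, TE and T libraries, and 0.518 and 0.624 times in unsupplemented ones. A ratio within a library does not depend on library scaling and shows unequal change of the genes of a pair; no test was run on these ratios.

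**Figure D3:**
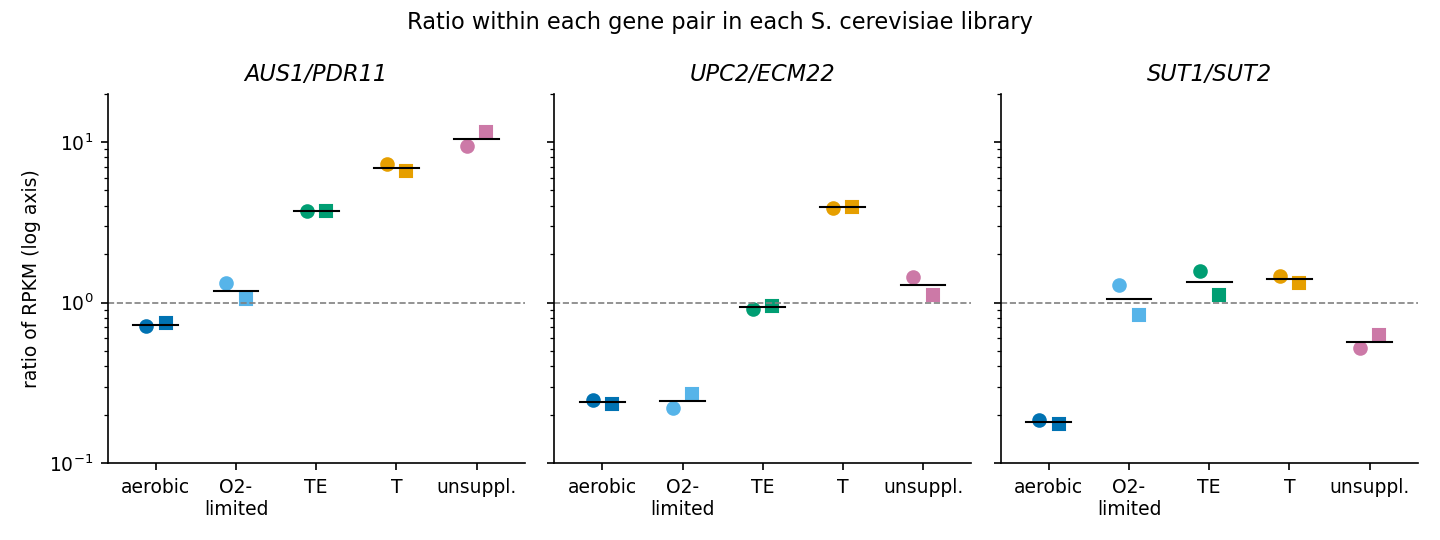
Ratio of per-length levels (RPKM) within each pair in every S. cerevisiae library, on a log axis with equality as a dashed line (circle, replicate 1; square, replicate 2; line, mean of 2 libraries). AUS1/PDR11 climbs from 0.711 in aerobic to 11.6 in unsupplemented cultures, UPC2/ECM22 peaks at 3.93 in T, and SUT1/SUT2 is lowest in aerobic cultures.

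In K. marxianus a single row carried an entry of the set, UPC2 (KM6556v0_E001210, chromosome 5, 261918 to 264290, minus strand, in the authors' CBS6556 annotation). The annotated gene is 2373 bases long, against 2742 for UPC2 in S. cerevisiae. It had raw counts of 446 and 526 in aerobic, 2520 and 2580 in oxygen-limited, 1669 and 1339 in TE, and 859 and 1256 in T libraries. The RPKM were 18.7 and 20.6 in aerobic, 113.8 and 115.2 in oxygen-limited, 82.7 and 81.1 in TE, and 58.1 and 83.0 in T. The oxygen-limited libraries were the highest and the aerobic the lowest, with no overlap, while T and TE overlapped. Its rank among K. marxianus genes was between percentiles 13.9 and 16.1 in aerobic and between 71.6 and 71.9 in oxygen-limited cultures.

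UPC2 of K. marxianus rose 5.83-fold from aerobic to oxygen-limited cultures, from 46.5 ± 3.23 to 271.7 ± 2.35 CPM (mean ± SD, n = 2), or 2.54 log2 units (SE 0.18, adjusted p 4.70e-05). That comparison called 47.0% of all K. marxianus genes tested, 22.0% higher and 25.0% lower. In TE it was 4.17-fold above aerobic cultures (log2 2.06, SE 0.18, adjusted p 8.42e-05), where 56.5% were called, 27.9% higher and 28.6% lower. TE was 1.40-fold below the oxygen-limited cultures (log2 -0.48, SE 0.17, adjusted p 0.0456), where 52.0% were called, 25.7% higher and 26.3% lower. Its adjusted p was 0.0817 to 0.169 when any 1 library other than those of T was left out. Withholding ergosterol left it at -0.21 log2 units (SE 0.17, adjusted p 0.352, unadjusted p 0.243), with a 95% interval of -0.61 to 0.18, so 0 of 1 was called by edgeR, and DESeq2 gave an adjusted p of 0.488. That comparison called 37.3% of all genes, 18.9% higher and 18.4% lower. The value rested on the replicates of T: it was 0.02 without T replicate 1 and -0.50 (adjusted p 0.000532) without T replicate 2. The authors' deposited tables for TE against oxygen-limited and for T against TE of K. marxianus are identical, and the -0.21 for UPC2 in both equals the T against TE value here.

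The effect of each condition on UPC2 was compared directly between the species, by subtracting the S. cerevisiae log2 fold change from the one in K. marxianus, in 16 libraries and over 3898 genes matched 1 to 1. For oxygen-limited against aerobic cultures the difference was 3.37 (SE 0.28, adjusted p 1.17e-06), since UPC2 rose in K. marxianus and stood at -0.83 in S. cerevisiae. For TE against aerobic cultures it was -0.17 (SE 0.26, adjusted p 0.630), with a 95% interval of -0.73 to 0.39. For TE against oxygen-limited cultures it was -3.54 (SE 0.27, adjusted p 2.03e-06), and for T against TE it was -2.13 (SE 0.26, adjusted p 4.46e-05). These tests called 56.4%, 44.7%, 46.3% and 50.8% of the matched genes, in that order, so a difference between species was common. Their fit left out the unsupplemented group. Its spread, p-values and shares are therefore not on the same footing as those of the S. cerevisiae tests above. Each of the 3 called differences kept its sign and its call under all alternatives run. UPC2 thus rose in TE against aerobic cultures in both species, and its response differed between species in oxygen-limited cultures and on withholding ergosterol. ECM22 of S. cerevisiae, the gene paired with UPC2, had no K. marxianus row and was not part of this comparison. In T against TE ECM22 stood at -0.15, beside -0.21 for UPC2 of K. marxianus. In oxygen-limited against aerobic and TE against oxygen-limited cultures it stood at -0.88 and 1.15, beside 2.54 and -0.48.

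**Figure D4:**
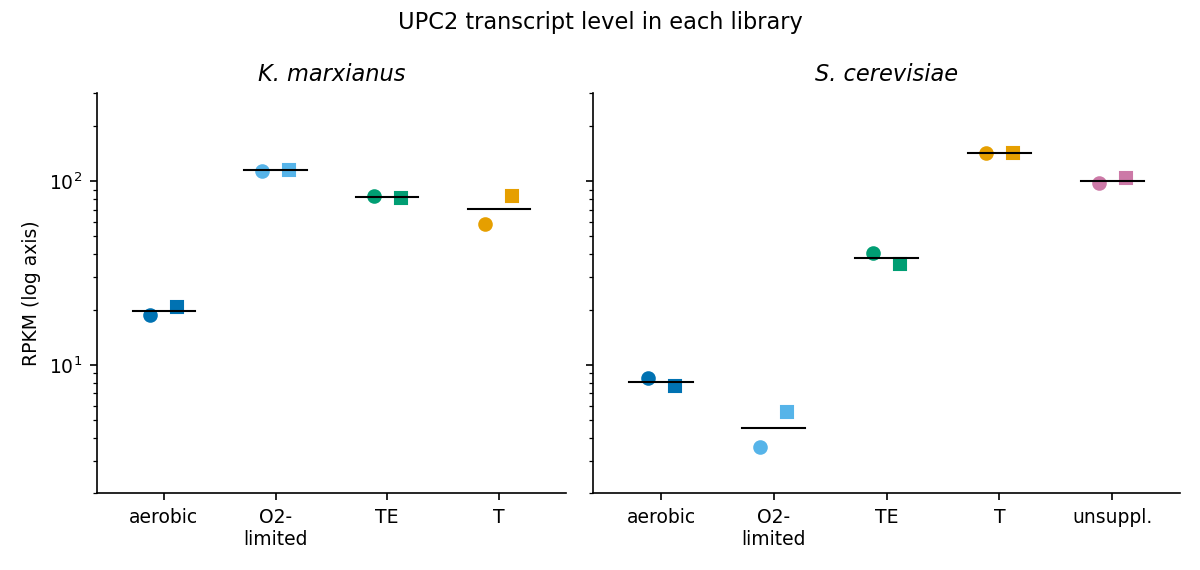
UPC2 level in every library of K. marxianus and S. cerevisiae, as RPKM on a log axis (circle, replicate 1; square, replicate 2; line, mean of 2 libraries). In K. marxianus the oxygen-limited libraries are highest, at 113.8 and 115.2; in S. cerevisiae they are lowest, at 3.55 and 5.50, and the T libraries highest.

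Genes of ergosterol synthesis, known targets of Upc2 and Ecm22 in S. cerevisiae, were followed with a list of 16 loci. It ran from the squalene synthase gene ERG9 onward, electron donors included. In K. marxianus 15 had a row. Of these, 13 rose and 0 fell in oxygen-limited against aerobic cultures (list median log2 1.22, all genes -0.08), and 14 rose in TE against aerobic cultures (median 2.34, all genes -0.02). ERG1, which encodes squalene epoxidase, rose by 3.81 (SE 0.23, adjusted p 2.31e-05) and 4.46 (SE 0.24, adjusted p 8.97e-06) log2 units. In TE against oxygen-limited cultures 10 of 15 rose (median 0.72), and 5 of 15 in T against TE (median 0.37). Among all K. marxianus genes 22.0%, 27.9%, 25.7% and 18.9% were higher in these 4 comparisons, so the last count lies nearest to the background. The ERG list and UPC2 of K. marxianus therefore had unlike signs in TE against oxygen-limited cultures, where UPC2 fell.

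In S. cerevisiae 7 of the 16 genes of this list fell and 0 rose in oxygen-limited against aerobic cultures (median -0.90, all genes -0.03). ERG11, encoding lanosterol demethylase, fell by 3.01 on the log2 scale (SE 0.41, adjusted p 0.00497), and ERG25, encoding a sterol methyl oxidase, fell by 2.19 (SE 0.32, adjusted p 0.00614). ERG1, ERG11 and the cytochrome b5 gene CYB5 were the 3 that rose in TE against oxygen-limited cultures (median 0.86). In T against TE 7 of 16 rose (median 1.26), ERG11 by 2.53 (SE 0.40, adjusted p 0.0181), and 7 of 16 rose in unsupplemented against TE cultures (median 1.57). TE against aerobic cultures gave 1 higher, ERG28, and 1 lower, ERG5, with a median of -0.01, and unsupplemented against T 1 in each direction with a median of 0.06. Among all S. cerevisiae genes 6.12% were lower in oxygen-limited against aerobic cultures, and 6.15% higher and 6.95% lower in TE against aerobic cultures. Those higher were 0.835% in TE against oxygen-limited, 1.72% in T against TE and 6.10% in unsupplemented against TE cultures. Against T, unsupplemented cultures had 8.37% higher and 2.95% lower. Without the unsupplemented group the list had 10 lower in oxygen-limited against aerobic and 14 higher in TE against oxygen-limited cultures. In T against TE 16 of 16 were then higher. Those fits called 62.0%, 38.8% and 50.2% of all genes.

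**Figure D5:**
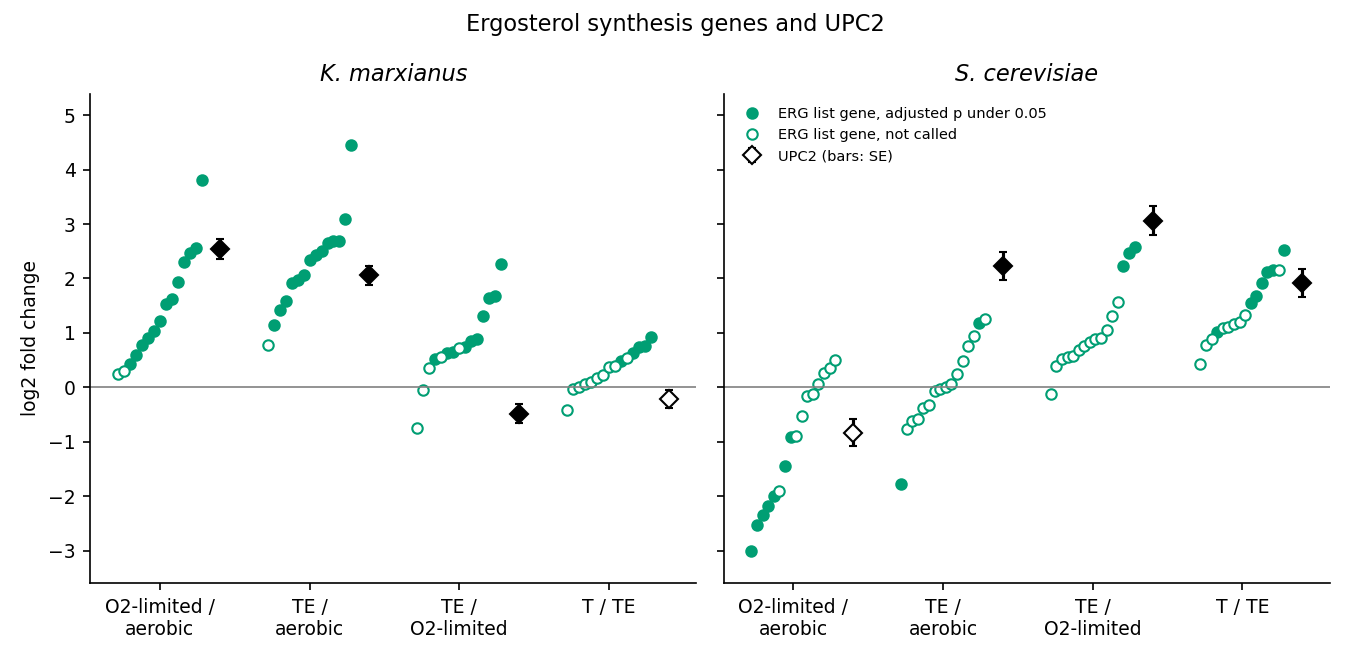
Log2 fold changes of the ergosterol synthesis list (circles, sorted within a comparison) and of UPC2 (diamonds, SE as bars) in the 4 comparisons both species share; filled symbols have an adjusted p under 0.05 over all genes. In oxygen-limited against aerobic cultures the K. marxianus genes lie above 0, with a median of 1.22, and those of S. cerevisiae mostly below, with a median of -0.90.

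Anaerobic cell wall mannoprotein genes, reported as targets of Upc2 or Sut1 in S. cerevisiae, were listed as 8 loci. No K. marxianus row carried any of them. In S. cerevisiae 6 loci were matched by 7 rows, DAN3 having 2 rows that share the same entries. No row carried the entry of DAN1 or TIR3, which does not show that these genes were not counted. DAN and TIR genes belong to repeated families, and the authors' counting set no option for reads that map to several places, so their values are uncertain. With oxygen limited, the 7 rows ranged from -0.38 to 2.48 log2 units and 0 were called by edgeR or by DESeq2 (1 at an unadjusted p under 0.05). In TE against aerobic cultures 4 rose, with a median of 4.07, TIR1 by 9.02 (SE 0.93, adjusted p 0.00127) and TIR4 by 6.53 (SE 0.88, adjusted p 0.00400). TIR1 and TIR4 were also the 2 that rose in TE against oxygen-limited cultures (median 2.48). In T against TE the 4 that rose were DAN rows (median of the list 4.64), among them DAN4 by 4.64 (SE 0.41, adjusted p 0.00319), and TIR1 was at 1.19, TIR2 at 1.59 and TIR4 at 2.04. Unsupplemented cultures had 6 of 7 higher than TE (median 3.51). Against T, 1 was higher, a DAN3 row, and 1 lower, DAN4 (median 1.73). The edgeR shares called among all S. cerevisiae genes were 14.1%, 13.1%, 2.11%, 5.04%, 8.67% and 11.3% in these comparisons, in the order given. With the unsupplemented group left out, 2 of 7 were higher in oxygen-limited against aerobic cultures, and 7 of 7 when TE was compared with aerobic or with oxygen-limited cultures or T with TE. Those fits called 62.0%, 58.2%, 38.8% and 50.2% of all genes.

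Sterol transfer between membranes and sterol export were followed with 20 loci in S. cerevisiae. In oxygen-limited against aerobic cultures 1 fell, OSH4, a sterol carrier (median of the list -0.16). OSH5, also called HES1, which encodes an oxysterol-binding protein homologue, was the 1 that rose in TE against aerobic cultures, by 3.79 (SE 0.73, adjusted p 0.0157), where OSH7 fell (median -0.10). It was also the 1 called in TE against oxygen-limited cultures, at 4.12 (SE 0.75, adjusted p 0.0403), with a list median of 0.05. In T against TE 3 of 20 rose (median 0.20), OSH5 by 3.24 (SE 0.70, adjusted p 0.0452), OSH1, and PRY2, a secreted sterol-binding protein gene, by 3.01 (SE 0.61, adjusted p 0.0384). Unsupplemented cultures had 4 higher than TE (median 0.85) and 4 higher than T (median 0.54). Of all S. cerevisiae genes these comparisons called 14.1%, 13.1%, 2.11%, 5.04%, 8.67% and 11.3%, in the order given. When the unsupplemented group was left out, the calls were 4 higher and 7 lower in oxygen-limited against aerobic, 4 and 6 in TE against aerobic, 6 and 4 in TE against oxygen-limited, and 9 and 2 in T against TE cultures. Those fits called 62.0%, 58.2%, 38.8% and 50.2% of all genes. OSH5 and PRY2 had no row in K. marxianus. There 11 of the 20 loci had one, of which 3 rose and 2 fell under oxygen limitation (median 0.08), 3 rose and 4 fell in TE against aerobic (median -0.16), 1 rose and 3 fell in TE against oxygen-limited (median -0.12), and 3 rose and 3 fell in T against TE cultures (median -0.16). These 5, 7, 4 and 6 calls of 11 stand beside 47.0%, 56.5%, 52.0% and 37.3% called among all K. marxianus genes. LAM2, for a sterol transfer protein of membrane contact sites, and NPC2, for a sterol-binding protein, had the largest K. marxianus values under oxygen limitation, 2.27 and 2.04.

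Of 10 other regulators of hypoxic and sterol genes, ROX1, the heme-dependent repressor of hypoxic genes, fell by 4.12 (SE 0.28, adjusted p 0.000455) in oxygen-limited and by 3.02 (SE 0.26, adjusted p 0.000627) in TE against aerobic S. cerevisiae cultures. SPT23, a regulator of fatty acid desaturation, fell with it in both, by 1.17 in TE, so that 2 of 10 were lower in each (medians -0.42 and -0.11). In TE against oxygen-limited cultures and in T against TE 0 of 10 were called by edgeR (medians 0.18 and 0.32), with 3 and 2 at an unadjusted p under 0.05 and 2 called by DESeq2 in each. A fit that left out the unsupplemented group had 4 higher and 1 lower in each of these, beside 38.8% and 50.2% of all genes called. The heme-responsive HAP1 rose by 1.38 (SE 0.34, adjusted p 0.0492) in unsupplemented against TE cultures, the 1 called there (median 0.22), and 1 rose and 2 fell against T (median 0.24). With all groups in the fit, edgeR called 14.1%, 13.1%, 2.11%, 5.04%, 8.67% and 11.3% of all S. cerevisiae genes in these comparisons, in the order given. K. marxianus had rows for 5 of the 10, and none for ROX1, MOT3, CYC8, SPT23 or NSG1. Of these 5, 4 rose under oxygen limitation (median 1.03) and 4 in TE against aerobic cultures, where TUP1 fell (median 1.22), led by HAP1 at 2.77 (SE 0.16, adjusted p 2.09e-05) and 3.16 (SE 0.17, adjusted p 8.68e-06). In TE against oxygen-limited cultures DAP1, a heme protein gene acting with Erg11, rose and TUP1 fell (median 0.39), and in T against TE MGA2 rose and TUP1 fell (median 0.30). Of all K. marxianus genes 47.0%, 56.5%, 52.0% and 37.3% were called in these comparisons, in the order given.

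The relatives of AUS1 and PDR11 were followed with 10 loci of PDR subfamily transporters and their regulators, of which 9 had a row in S. cerevisiae. In oxygen-limited against aerobic cultures 4 fell, PDR1, PDR3, PDR10 and SNQ2 (median -0.85), and 3 in TE against aerobic cultures, PDR5, PDR10 and SNQ2 (median -0.64). In TE against oxygen-limited cultures 0 were called by edgeR (3 at an unadjusted p under 0.05, 1 by DESeq2; median 0.21). In T against TE 1 fell, PDR12, which encodes a weak acid exporter, by 1.82 (SE 0.28, adjusted p 0.0176; median 0.29). Unsupplemented cultures had 2 higher and 1 lower than TE (median 0.54), and 1 lower than T (median 0.56). By edgeR these comparisons called 14.1%, 13.1%, 2.11%, 5.04%, 8.67% and 11.3% of all S. cerevisiae genes, in the order given. Leaving out the unsupplemented group, 1 was higher and 6 lower in oxygen-limited against aerobic, 2 and 6 in TE against aerobic, 3 and 2 in TE against oxygen-limited, and 3 and 1 in T against TE cultures. Those fits called 62.0%, 58.2%, 38.8% and 50.2% of all genes. Of the 5 K. marxianus rows, 2 rose and 1 fell under oxygen limitation (median 0.17), and 3 fell in TE against aerobic (median -0.46) and 3 in TE against oxygen-limited cultures (median -0.64). In T against TE 0 of 5 were called, by edgeR or DESeq2 or at an unadjusted p under 0.05 (median -0.03). Among all K. marxianus genes edgeR called 47.0%, 56.5%, 52.0% and 37.3%, in the order given.

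The position of the genes was read from the authors' annotations. UPC2 lay between TCP1, a chaperonin subunit gene, and AHA1, an Hsp90 co-chaperone gene, in both species, at gaps of 839 and 359 bases in S. cerevisiae and 1061 and 302 bases in K. marxianus. Beyond TCP1 in K. marxianus lay CDC42, at 3692 bases from UPC2. In S. cerevisiae CDC42 lay directly beside ECM22, at 1748 bases. On the other side of ECM22, at 1312 bases, was SCEN_L02890, which carries no S288C entry. AHA1 and TCP1 were not called in any of the 6 S. cerevisiae comparisons. In K. marxianus AHA1 was at 0.45 in oxygen-limited against aerobic cultures (adjusted p 0.0371) and -0.68 in T against TE (adjusted p 0.0116), both called. TCP1 rose there by 0.61 in TE, whether set against aerobic or oxygen-limited cultures, and fell by 0.82 in T against TE. AUS1 lay 2728 bases from TIR2 and 3880 from TIR4. On the other side of it, beyond a tRNA gene, YOR012W, at 2673 bases, rose by 2.56 in TE against aerobic cultures. PDR11 had the mannosyltransferase gene MNT3 at 211 bases on one side, not called in any comparison. On the other side lay YIL012W, and beyond it SCEN_I01680, which carries no S288C entry and rose by 6.64 in TE against aerobic and by 6.83 in TE against oxygen-limited cultures. SUT1 had RAD54 at 1734 and YIP5 at 172 bases, with AIM14 beyond it at 1523 bases, and SUT2 had HAA1 at 1449 and RPA135 at 226 bases. HAA1, encoding an activator of weak acid resistance genes, fell by 0.88 in oxygen-limited and by 0.95 in TE against aerobic cultures, and AIM14 fell by 1.85 in TE against aerobic cultures. RAD54, YIP5 and RPA135 were not called.

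The genes whose levels ran most like those of each member were found by Pearson's r of log2(CPM + 1) over all libraries of the species. Libraries of a group share their culture condition and run, so r is given as a description. For AUS1 over the 10 S. cerevisiae libraries they were HEM13, encoding the oxygen-requiring coproporphyrinogen oxidase of heme synthesis (0.994), its near neighbour TIR4 (0.993) and SCEN_I01680 (0.986), which lies beside PDR11. For PDR11 they were the pyruvate kinase gene CDC19 (0.977), ERG1 (0.972) and HEM13 (0.970). For UPC2 they were SCEN_P00280 (0.983), the protein mannosyltransferase gene PMT5 (0.981) and AUS1 (0.981). ECM22 was closest to LAC1, a ceramide synthase gene (0.979), SUT1 to DIP5, an amino acid permease gene (0.963), and SUT2 to ALG5, a glycosylation gene (0.881). UPC2 of K. marxianus, over 8 libraries, was closest to FMO1, a flavin-containing monooxygenase gene (0.995). Without the unsupplemented libraries 3 of the 18 S. cerevisiae neighbours were named again: HEM13 for AUS1, CDC19 for PDR11 and LAC1 for ECM22.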

How the data were processed

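Gene counts are whole counts of read pairs that the authors made with featureCounts 1.6.0, per the file headers, with no option set for strand or for reads that map to several places. Bowtie 1.2.1.1, SAMtools 1.3.1 and edgeR 3.28.1 are also named in the submitters' processing notes. The deposited tables of comparisons hold, per the file headers, a log2 fold change, a log2 mean CPM, a likelihood ratio score, p-values and −log10 p-values. The authors' log2 values and adjusted p-values were used for comparison alone.

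The analysis ran in R 4.3.3 with edgeR 4.0.16, and DESeq2 1.42.0 as an alternative. Genes were kept by filterByExpr (5143 of 5330 in K. marxianus, 5868 of 6171 in S. cerevisiae), which all 7 rows of the set passed. Libraries were scaled by TMM, all groups of a species entered 1 quasi-likelihood fit, and a gene was called at a Benjamini-Hochberg adjusted p under 0.05 over all genes tested. SE was derived from the log2 fold change and its F statistic. RPKM divide TMM-scaled CPM by gene length. Percentiles are of RPKM among genes tested. The species difference used genes with identical single S288C entries and TMM within species. The fits were also run on simulated data. Their spread was set below that of the S. cerevisiae libraries, so that run does not measure how well the S. cerevisiae tests perform. Gene names come from the S288C entries through RefSeq's R64 gene table. No column of per-sample values was without a sample. All 6 genes, members of the gene lists, the 3 genes most alike in level (mean of at least 10 CPM) and the 2 nearest genes on each side could be named, and not all of them are. Genes, lists and tests were chosen with earlier results of these data known.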

Additional observations from a re-analysis of the deposited data

Results flagged for a closer look

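UPC2 met the rule for a difference between groups in 3 comparisons, since the response in K. marxianus, less the response in S. cerevisiae (log2), passed its own test. The difference was 3.37 (SE 0.28) for oxygen-limited against aerobic cultures, -3.54 (SE 0.27) for TE against oxygen-limited cultures and -2.13 (SE 0.26) for T against TE. Of the matched genes 56.4%, 46.3% and 50.8% also passed in these comparisons. In oxygen-limited cultures UPC2 stood at 113.8 and 115.2 RPKM in K. marxianus against 18.7 and 20.6 in aerobic ones, and at 3.55 and 5.50 in S. cerevisiae against 8.45 and 7.71. In T it stood at 58.1 and 83.0 RPKM in K. marxianus against 82.7 and 81.1 in TE, and at 142.7 and 142.6 in S. cerevisiae against 40.6 and 35.3. The run code changed with the group in every S. cerevisiae comparison used here, and its part in the difference was not tested.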

How the results depend on the processing

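The number of S. cerevisiae genes called, of 6, depended on the processing, as did the share of all genes called. In oxygen-limited against aerobic cultures it was 1, and 4 with DESeq2, 5 with the pair of groups fitted alone and 5 without the unsupplemented group (1 to 5 with 1 library left out). In TE against aerobic cultures it was 3, and 6 with the pair alone (2 to 4 with 1 left out). In TE against oxygen-limited cultures it was 3, and 5 without the unsupplemented group (0 to 5). In T against TE it was 1, and 2 with DESeq2, 5 with the pair alone and 5 without the unsupplemented group (0 to 5). In unsupplemented against T cultures it was 1, and 2 with DESeq2 and 0 with the pair alone (0 to 5). In unsupplemented against TE cultures it was 4, and 0 with the pair alone (0 to 5). Of all genes, the pair alone called between 50.2% and 69.2% in oxygen-limited against aerobic, TE against aerobic and T against TE cultures, and DESeq2 called 26.1% in the first, 16.6% in T against TE and 34.8% in unsupplemented against T cultures. Leaving out an unsupplemented library gave the highest of each of these ranges. The pair fitted alone called 0 genes in all in both comparisons with the unsupplemented group. With a replicate block from the stem of the titles, 0 of the 6 were called in unsupplemented against TE cultures, and UPC2 of K. marxianus was not called in T against TE (0 of 1). Stem pairs deviated with a correlation of -0.0915 across 5868 S. cerevisiae genes and 0.196 across 5143 K. marxianus genes, over 2 pairs each, and the labels do not state a pairing. For K. marxianus UPC2 the count was 0 to 1 with 1 library left out in TE against oxygen-limited cultures and in T against TE. RLE scaling and dropping the low-count filter changed 1 call of the 6 genes, ECM22 in unsupplemented against TE cultures (adjusted p 0.0532 and 0.0526). No called log2 fold change changed sign under any alternative, the 3 called species differences of UPC2 stayed called, and the one for TE against aerobic cultures stayed uncalled. Without TMM factors, 19 group levels of the set moved by more than the replicate SD and 15 did not. Leaving out libraries outside a comparison was chosen after seeing the data. The causes were not tested. With 2 libraries in each group, a log2 fold change of about 1 was often not called in S. cerevisiae, so a gene without a call is not shown to be unchanged.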
